A study of Mus musculus with 2 samples.

Results

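The extracellular matrix genes of the lung stroma were followed as a set of 34 genes, given by a list of names with no measured value in its rule: 13 collagen chains, the collagen chaperone Serpinh1, 3 lysyl oxidases, 4 elastic fibre genes, 4 proteoglycans and 9 adhesive or matricellular glycoproteins. All 34 were listed for the niche library and 31 for the distal one, among 11407 genes listed in either table. Col8a1, Thbs2 and Spp1 were listed in the niche table only, so a distal value was not read as 0 and no ratio was given. The data were 2 single-cell RNA sequencing libraries of CD45- mouse lung cells, that is, cells without the surface protein shared by leukocytes. Both came from lungs 7 days after Labelling-4T1 cells, a mouse mammary carcinoma line built to label the cells around it, were injected into a vein. One library was titled niche cells and the other distal lung cells. The strain, sex and age of the mice, the number of animals and the gates of the sort are not given in the labels used here, and neither library came from a lung without injected tumour cells. With 1 library per group no test between niche and distal was possible, and every interval below is an exact 95% interval that covers counting error only.

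The extracellular matrix is the protein scaffold outside cells. Fibrillar collagens (types I, III and V) give it tensile strength, type IV collagen forms the sheet-like basement membrane under epithelium and endothelium, and elastin on fibrillin microfibrils lets the alveolar wall recoil. In the lung, fibroblasts make most of the fibrillar collagen and elastin, pericytes and endothelial cells share a basement membrane, and matricellular proteins such as tenascin C, periostin and thrombospondin are best known from development, repair and tumour stroma.

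Depth differed between the libraries. After filtering, the niche library held 1423 cells with a median of 2975 transcript molecules (unique molecular identifiers, UMIs) and the distal library 1987 cells with a median of 1975 UMIs, and 7 barcodes occurred in both. The matrix genes gave 1.87% of niche and 0.676% of distal UMIs, beside a mesenchymal-like share of 781 of 1423 niche and 399 of 1987 distal cells. Malat1, a nuclear RNA, was under 0.2% of UMIs in 134 niche and 32 distal cells, which can mark damaged cells. Its part in the ratios of the whole mesenchymal-like class was measured by leaving those cells out, and the median ratio was 0.51 without them and 0.44 with them.

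Cells were clustered without the 34 matrix genes, so that none of those genes set the groups in which it is described. Clusters were called like a cell type from fixed markers that included no matrix gene. Mesenchymal-like cells were split into Mdk Cxcl14 fibroblast-like cells (192 niche, 46 distal), adventitial fibroblast-like cells (127 and 83), alveolar lipofibroblast-like cells (69 and 126), alveolar myofibroblast-like cells (190 and 107), pericyte-like cells (22 and 35) and inflammatory fibroblast-like cells, which held 181 niche and 2 distal cells and so received no ratio. Of those 181 cells, 53 had low Malat1. There were 496 niche and 1308 distal endothelial-like cells. Although the sort was for CD45- cells, 51 niche and 26 distal cells carried immune markers.

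Promoter sequence was read for 20 of the 34 genes, as the 250 bases before the annotated start (RefSeq, mouse build GRCm38.p6). The 4 shown belong to a pair of fibrillar collagen genes of the adventitial and myofibroblast-like cells, Col1a2 and Col3a1, and to Tnc and Vcan, which had the highest niche over distal ratios in the mesenchymal-like class. Capitals mark the TATA box letters TATAAA, the letters CCAAT and the Sp1 letters GGGCGG on either strand, so ATTGG is CCAAT and CCGCCC is GGGCGG on the other strand. Each line ends 1 base before the start.
Col1a2, chr6:4505368-4505617, plus strand: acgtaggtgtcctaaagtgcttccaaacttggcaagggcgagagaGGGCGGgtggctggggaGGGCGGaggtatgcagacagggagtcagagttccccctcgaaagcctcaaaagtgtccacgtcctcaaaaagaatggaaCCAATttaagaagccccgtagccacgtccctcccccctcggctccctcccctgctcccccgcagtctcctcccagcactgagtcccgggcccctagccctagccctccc
Col3a1, chr1:45311288-45311537, plus strand: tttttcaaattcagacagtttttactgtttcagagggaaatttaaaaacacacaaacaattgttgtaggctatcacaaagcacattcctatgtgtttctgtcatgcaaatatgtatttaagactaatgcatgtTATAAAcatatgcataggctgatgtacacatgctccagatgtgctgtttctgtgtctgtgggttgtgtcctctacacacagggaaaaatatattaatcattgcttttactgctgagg
Tnc, chr4:64047016-64047265, minus strand: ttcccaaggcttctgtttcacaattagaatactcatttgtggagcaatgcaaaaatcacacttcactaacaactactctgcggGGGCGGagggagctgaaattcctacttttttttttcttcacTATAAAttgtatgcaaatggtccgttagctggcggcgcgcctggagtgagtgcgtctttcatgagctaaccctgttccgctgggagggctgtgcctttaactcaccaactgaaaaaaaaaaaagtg
Vcan, chr13:89742513-89742762, minus strand: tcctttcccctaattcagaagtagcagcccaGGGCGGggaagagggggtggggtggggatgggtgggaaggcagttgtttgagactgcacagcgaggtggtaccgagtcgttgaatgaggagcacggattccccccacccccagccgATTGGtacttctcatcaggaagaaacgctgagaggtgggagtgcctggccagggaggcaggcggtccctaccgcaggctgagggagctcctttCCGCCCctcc
These letters were not the same in the 4 windows. TATAAA stood in Col3a1 and Tnc, CCAAT in Col1a2 and Vcan, and GGGCGG in Col1a2, Tnc and Vcan. Over the same 250 bases, CCAAT was in 6 of the 25 windows of matrix genes and in 33.8% of 32851 windows of all genes. TATAAA was in 6 of 25 and 12.4%, and GGGCGG in 14 of 25 and 32.7%. The first of these shares is below and the other 2 above the share of all windows. Some genes had more than 1 window, and by gene these letters were in 6, 5 and 12 of 20. The AP-1 letters TGANTCA were in 1 of 25 windows (Col6a1) and 6.75% of all and the STAT-type letters TTCNNNGAA in 0 of 25 and 7.02%. Both strands were searched and a base could count for more than 1 motif. Of the matrix genes that lie side by side on a chromosome, Col4a1 and Col4a2 are head to head on chromosome 8 with starts 21 bases apart, Dcn and Lum follow each other on chromosome 10, as do Col6a2 and Col6a1, and Col3a1 faces Col5a2 on chromosome 1 (GENCODE M21, build mm10).

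Matrix genes took the largest share of UMIs in adventitial fibroblast-like cells, at 3.85% of niche and 3.56% of distal UMIs. In lipofibroblast-like cells the shares were 2.80% and 2.94%. In Mdk Cxcl14 fibroblast-like cells the niche share was 3.18% (3.15 to 3.22) and the distal share 2.05% (1.97 to 2.14). In myofibroblast-like cells it was 2.31% (2.28 to 2.35) and 1.49% (1.44 to 1.54), and in pericyte-like cells 1.71% and 1.52%. The inflammatory niche cells were at 2.42%. The gap between the libraries was thus wide in 2 of the 5 subtypes compared and narrow in the other 3. Endothelial-like cells lay far below, at 0.320% and 0.258%, and immune-like cells at 0.116% and 0.0384%.

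**Figure D1:**
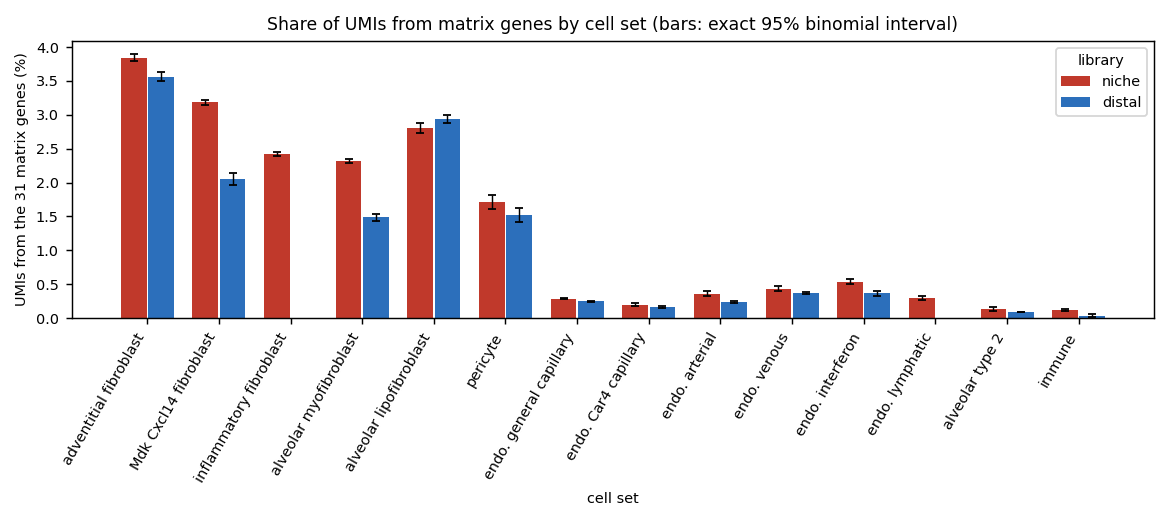
Percent of UMIs that came from the 31 matrix genes listed in both tables (vertical axis), for each cell set with at least 17 cells, niche in red and distal in blue, with exact 95% binomial intervals. The adventitial bars are the tallest, at 3.85% and 3.56%, and the Mdk Cxcl14 and myofibroblast-like sets show the widest gap between libraries.

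Among the fibrillar collagens, Col1a1, the alpha 1 chain of type I collagen, was highest in adventitial fibroblast-like cells in both libraries. Levels are given per 1000000 UMIs of the genes listed in both tables (CPM). Col1a1 stood at 3010.1 CPM in niche and 2565 CPM in distal adventitial cells, 2005 and 703 CPM in Mdk Cxcl14 cells, 1266 and 709 CPM in myofibroblast-like cells, 622 and 566 CPM in lipofibroblast-like cells, 400.0 and 151 CPM in pericyte-like cells, and 1206 CPM in the inflammatory niche cells. The niche value was above the distal one in all 5 subtypes, by a log2 ratio of niche over distal that ran from 0.14 (-0.22 to 0.49) in lipofibroblast-like cells to 1.5 (1.18 to 1.86) in Mdk Cxcl14 cells. Col3a1, the type III chain that accompanies type I in soft tissue, stood at 4701 and 3073 CPM in adventitial cells, 3877 and 3126 CPM in myofibroblast-like cells, 2946 and 973 CPM in Mdk Cxcl14 cells, and 774 and 775 CPM in lipofibroblast-like cells. In distal cells its adventitial and myofibroblast-like levels could not be told apart (log2 difference 0.02, -0.13 to 0.17). Col1a2, which encodes the other chain of type I collagen, was also highest in adventitial cells (3153 and 3031 CPM), and its log2 ratio in Mdk Cxcl14 cells was 0.69 (0.42 to 0.98). Col5a2, a minor chain built into the fibrils, had a log2 ratio of 1.51 (0.83 to 2.37) in Mdk Cxcl14 and 1.38 (0.87 to 1.98) in myofibroblast-like cells and 0.29 (-0.20 to 0.82) in adventitial cells.

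The type IV collagens of the basement membrane had another order of cell types. Col4a1 and Col4a2, whose chains assemble into 1 trimer, were highest in pericyte-like cells in both libraries. Col4a1 was at 2184 niche and 1038 distal CPM there, against at most 429 CPM in any other mesenchymal-like subtype of the niche and 198 CPM of the distal library. Col4a2 followed it with 1277 and 849 CPM in pericyte-like cells. Both were also above the level of free RNA in endothelial-like cells (described further on), at 515 and 498 CPM for Col4a1 and 258 and 244 CPM for Col4a2, where the libraries did not differ beyond counting error (log2 ratios 0.05, -0.09 to 0.18, and 0.08, -0.11 to 0.27).

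Col6a1, Col6a2 and Col6a3 encode the type VI microfilament collagen around cells. In distal cells Col6a1 and Col6a2 were highest in adventitial cells, at 685 and 661 CPM. In the niche both were highest in Mdk Cxcl14 cells, at 579 and 542 CPM, and in adventitial cells they were lower than in the distal library (log2 ratios -0.57, -0.86 to -0.28, and -0.45, -0.74 to -0.16). Col14a1, which sits on fibril surfaces, was an adventitial gene in both libraries, at 648 and 665 CPM. Col12a1, of the same family, was low in all sets, with at most 69.6 CPM, in niche myofibroblast-like cells.

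Of the genes that make collagen ready and crosslink it, Serpinh1, the chaperone that folds collagen in the endoplasmic reticulum, was present in each subtype. It stood at 1423 and 514 CPM in Mdk Cxcl14 cells, 1221 and 502 CPM in myofibroblast-like cells, 1586 and 1388 CPM in adventitial cells, and 1138 and 1113 CPM in pericyte-like cells. The libraries were apart in the first 2 and close in the others, with log2 ratios of 1.46 (1.09 to 1.88), 1.28 (0.99 to 1.58), 0.19 (0.01 to 0.37) and 0.03 (-0.48 to 0.55). The lysyl oxidases Lox and Loxl1, which crosslink collagen and elastin, showed no such gap in Mdk Cxcl14 cells (0.60, -0.23 to 1.69, and -0.08, -0.40 to 0.28). Loxl1 was higher in niche myofibroblast-like cells (1.02, 0.47 to 1.66) and lower in niche lipofibroblast-like cells (-0.49, -0.84 to -0.15). Lox was highest in lipofibroblast-like cells of both libraries, at 273 and 281 CPM.

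Mfap4, a microfibril protein that binds elastic fibres, marked the lipofibroblast-like cells, at 14507 and 16400.0 CPM, with Mdk Cxcl14 cells next at 4426 and 6307 CPM. Over the whole mesenchymal-like class Mfap4 was lower in the niche by a log2 ratio of -1.16 (-1.20 to -1.11). Within subtypes the ratio was smaller, from -0.70 (-1.68 to 0.23) in pericyte-like to -0.18 (-0.25 to -0.11) in lipofibroblast-like cells, and with the subtypes weighted to one mix in both libraries it was -0.31. It was also short of 2-fold with each cell thinned to 1200 UMIs (-0.77) or with the median ratio of all genes set to 0 (-0.99). Eln, elastin itself, stood at 3111 and 1198 CPM in Mdk Cxcl14 cells, a log2 ratio of 1.37 (1.12 to 1.64), and went the other way in adventitial cells (952 and 1323 CPM, -0.48, -0.68 to -0.27). Fbn1, the fibrillin of the microfibrils, was higher in niche Mdk Cxcl14 (1.55, 0.80 to 2.53) and myofibroblast-like cells (1.45, 0.75 to 2.33). Fbln1, an elastic fibre linker, was at 1436 and 1285 CPM in adventitial cells and was 2-fold lower in niche myofibroblast-like cells (131 against 272 CPM, -1.06, -1.53 to -0.57).

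The proteoglycans were spread unevenly over the subtypes. Dcn (decorin), which coats collagen fibrils, was at 9523 and 7949.5 CPM in adventitial cells and at 2064 and 957 CPM in myofibroblast-like cells, a log2 ratio of 1.11 (0.90 to 1.32) in the latter. Its neighbour Lum (lumican) was at 1431 and 643 CPM in myofibroblast-like and 1297 and 835 CPM in adventitial cells. The libraries thus stood farther apart in the myofibroblast-like set for both genes. Bgn (biglycan) ran from 1585 CPM in distal pericyte-like to 3513 CPM in niche Mdk Cxcl14 cells, with log2 ratios from -0.06 in adventitial to 0.52 in myofibroblast-like cells. Vcan (versican), a large proteoglycan of provisional matrix, was at 116 and 37.5 CPM in myofibroblast-like cells (1.54, 0.59 to 2.87), 75.5 and 50 CPM in adventitial cells (0.56, -0.35 to 1.63), 57.8 and 18.0 CPM in Mdk Cxcl14 cells, and 99.6 CPM in the inflammatory niche cells, and had 0 UMIs in lipofibroblast-like and pericyte-like cells.

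Among the adhesive and matricellular genes, Tnc (tenascin C) had the highest ratio of the set in the mesenchymal-like class. It had 449 UMIs (140.5 CPM) in niche and 15 UMIs (16.1 CPM) in distal cells, a log2 ratio of 3.08 (2.39 to 3.97). Cells with a Tnc UMI were 26.0% of niche and 3.3% of distal mesenchymal-like cells (median depth 3557 and 2078 UMIs), and 11.4% and 1.1% after each cell was thinned to 1200 UMIs. Among endothelial-like cells, taken as the background, 1.4% and 0.2% had a Tnc UMI (median depth 2343 and 1716 UMIs). In the niche Tnc was at 259 CPM in inflammatory, 157 CPM in myofibroblast-like, 127 CPM in Mdk Cxcl14, 30.8 CPM in pericyte-like (2 UMIs), 21.8 CPM in lipofibroblast-like and 7.9 CPM in adventitial cells. High Tnc was thus found in 3 niche subtypes, and lipofibroblast-like cells, at 21.8 and 27.8 CPM, had too few UMIs to show a difference (-0.27, -2.53 to 1.55).

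Fn1 (fibronectin), the glycoprotein on which other matrix is laid, stood at 1910.2 and 802 CPM in Mdk Cxcl14 cells, 1559 and 1285 CPM in lipofibroblast-like cells, 475 and 262 CPM in adventitial cells and 71.9 and 14.1 CPM in myofibroblast-like cells. Its niche value was above the distal one in each of these, with log2 ratios of 1.24, 0.28, 0.85 and 2.14, the last on 61 and 3 UMIs. The myofibroblast-like level of Fn1 in the niche was close to that of the highest free RNA gene, which would put Fn1 at 68.6 CPM in niche and 11.9 CPM in distal cells. Thbs1 (thrombospondin 1), an activator of latent TGF-beta, was highest among the mesenchymal-like subtypes in myofibroblast-like cells of both libraries, at 2341 and 2182 CPM. The next subtype was the inflammatory one in the niche, at 1875 CPM, and Mdk Cxcl14 cells in the distal library. Thbs1 was higher in niche Mdk Cxcl14 cells (1603 against 685 CPM, 1.22, 0.89 to 1.58) and did not differ beyond counting error in myofibroblast-like cells (0.10, -0.04 to 0.25). Postn (periostin) was a pericyte-like gene, at 1723 and 2415 CPM, and was lower in niche pericyte-like cells (-0.49, -0.87 to -0.11) and higher in niche myofibroblast-like cells (112 against 23.5 CPM, 2.12, 0.98 to 3.91). Sparc, a collagen-binding protein, was among the mesenchymal-like subtypes also highest in pericyte-like cells (5430.4 and 6491 CPM). Tgfbi was at 190 and 291 CPM in myofibroblast-like cells (-0.62, -1.05 to -0.17). Cthrc1, a secreted gene of fibrotic stroma, had 46 niche and 7 distal UMIs in the whole class, and 15 of the niche UMIs lay in 1 myofibroblast-like cell.

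**Figure D2:**
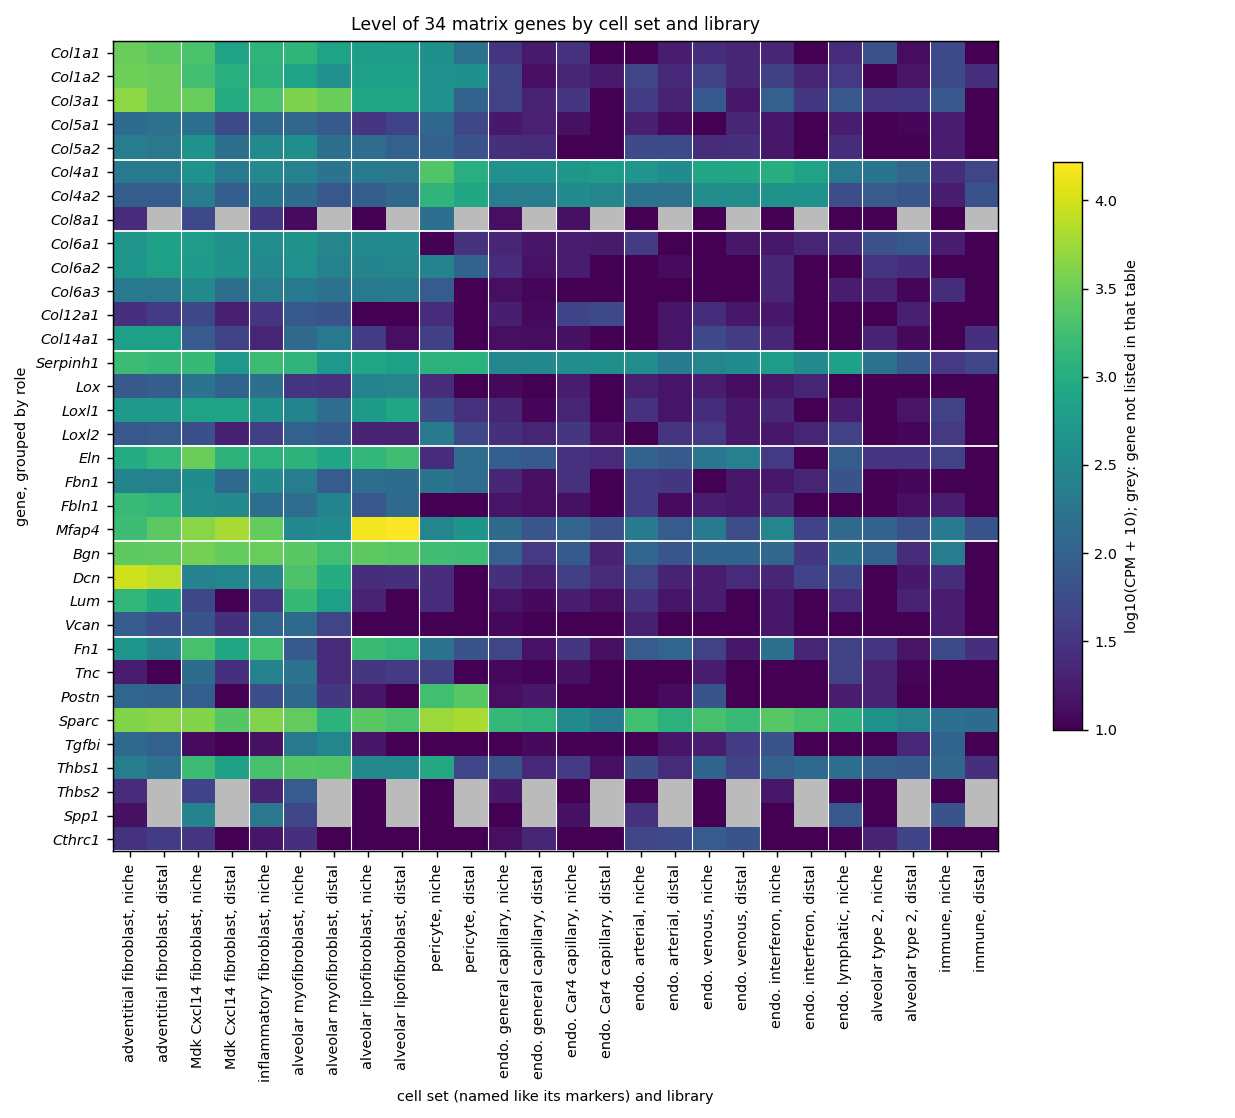
Level of each matrix gene (rows, grouped by role) in each cell set and library (columns) as log10 of CPM plus 10, with grey where a table does not list the gene. Mfap4 is brightest in lipofibroblast-like cells, Dcn in adventitial cells, and Col4a1, Col4a2, Postn and Sparc in pericyte-like cells.

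Counted over the set, the subtype with the highest level of a gene was not always the same in the 2 libraries. Of the genes with at least 30 UMIs in the distal mesenchymal-like cells, 13 were highest in adventitial cells, 6 in lipofibroblast-like, 4 in pericyte-like, 3 in myofibroblast-like and 1 in Mdk Cxcl14 cells. In the niche, 12 were highest in Mdk Cxcl14, 6 each in adventitial, myofibroblast-like and pericyte-like, 2 in lipofibroblast-like and 2 in inflammatory cells. The tallies differ in subtypes and genes. The niche one compared 6 subtypes and the distal one 5, without inflammatory cells. The niche Mdk Cxcl14 count included Spp1, not listed for the distal library, and Cthrc1, which had 7 distal UMIs. The lead over the next subtype excluded equality for 9 of the 13 distal adventitial genes and for 7 of the 12 niche Mdk Cxcl14 genes. Among the latter were Eln (3111 CPM, next 1352 CPM) and Col6a3 (323 CPM, next 218 CPM).

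To be counted as higher or lower, a gene needed a ratio of at least 2-fold, a counting interval without equality, and at least 10 UMIs over both libraries. In the whole mesenchymal-like class 4 of 31 measured matrix genes were higher (Tnc, Vcan, Col5a2 and Thbs1) and 1 was lower (Mfap4), while 3.41% of all 9970 genes tested were higher and 7.39% lower. Their median log2 ratio was 0.44, against -0.16 for all genes, and 0.60 with that median set to 0. Mesenchymal-like cells of the libraries held subtypes in different shares. Weighting 5 subtypes to one mix, with the inflammatory cells left out, gave a median of 0.43. Tnc was then at 2.59, Vcan at 1.26 and Col5a2 at 1.07, while Thbs1, at 0.43, and Mfap4, at -0.31, did not reach 2-fold. The part of either step in these changes was not tested.

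The 5 subtypes fell into those with many higher genes and those with none. In adventitial fibroblast-like cells 0 of 30 measured genes were 2-fold higher and 0 lower (background 1.85% and 3.87%), with a median of 0.07 against -0.09 for all genes. In lipofibroblast-like cells the counts were 0 and 0 of 22 (background 2.23% and 2.06%), with a median of -0.02 against 0.02. Smaller differences were seen in adventitial cells, where Fn1 (0.85, 0.47 to 1.27), Lum (0.63, 0.41 to 0.86) and Col3a1 (0.61, 0.50 to 0.73) were above and Mfap4 (-0.65, -0.80 to -0.50) below the distal level. In Mdk Cxcl14 cells 15 of 30 were higher and 0 lower (background 2.91% and 3.39%), with a median of 1.28 against -0.07. In myofibroblast-like cells 11 of 31 were higher and 1 lower (background 4.57% and 6.76%), with a median of 0.73 against -0.15. Pericyte-like cells had 5 of 15 higher and 0 lower (background 5.89% and 4.47%), with a median of 0.58 against -0.09.

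**Figure D3:**
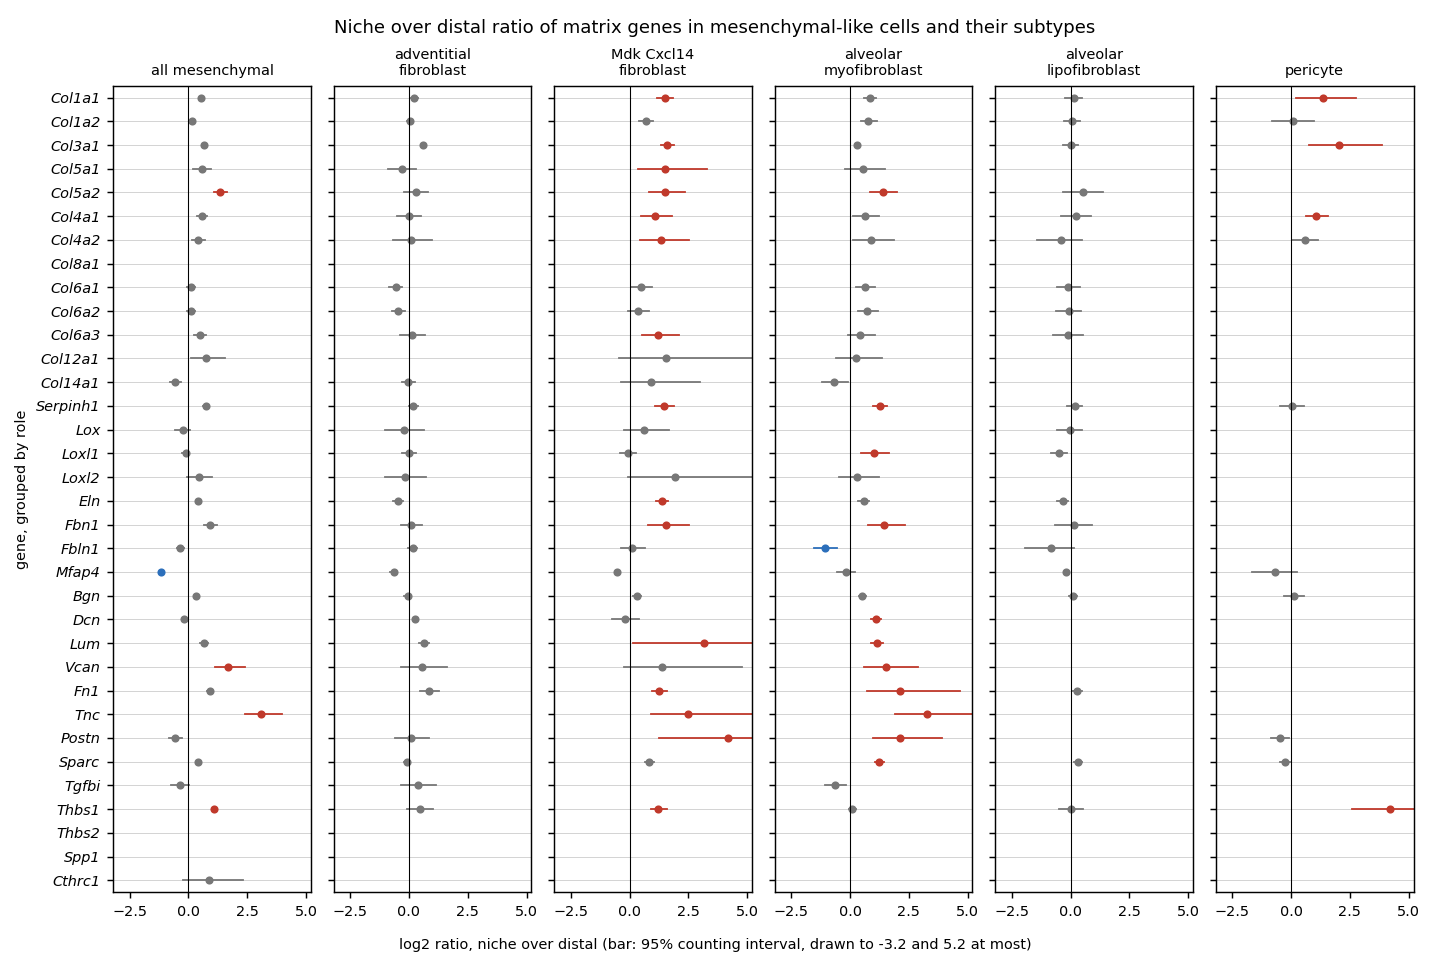
Log2 ratio of niche over distal level (horizontal axis, 95% counting interval) of each matrix gene with at least 30 UMIs, for all mesenchymal-like cells and for 5 subtypes. Red points are 2-fold higher and blue ones 2-fold lower in the niche with an interval that excludes equality; most red points lie in the Mdk Cxcl14 and myofibroblast-like panels, and the adventitial and lipofibroblast-like panels have none.

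The 15 higher genes of Mdk Cxcl14 cells covered several roles. They were Col1a1, Col3a1, Col5a1 and Col5a2 of the fibrillar collagens, Col4a1 and Col4a2, Col6a3, Serpinh1, Eln and Fbn1, Lum, and the glycoproteins Fn1, Tnc, Postn and Thbs1. Lum and Postn had 0 distal UMIs, and against a floor of 3 UMIs over the set they were at least 1.46-fold and at least 3.05-fold higher in the niche. With such genes at their bound, the median was 1.22 and 14 genes reached 2-fold, since Lum did not. Lum was at 39.3 CPM in the niche cells, where the highest free RNA gene would put it at 37.7 CPM. Other genes differed inside this set as well. Inmt, a lipofibroblast marker, was at 4677 CPM in its niche and 13136 CPM in its distal cells, 10 of its 46 distal and 14 of its 192 niche cells had low Malat1, and the 1 haemoglobin gene listed in both tables was at 3604 CPM in distal and 122 CPM in niche cells. The part of damaged cells and of erythroid RNA in these ratios was not tested. At a clustering resolution of 2, 122 of the 192 niche cells but 3 of the 46 distal cells kept the name, and 63 niche and 42 distal cells were named lipofibroblast-like.

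Between those 63 and 42 cells 0 of 23 measured matrix genes were 2-fold higher and 0 lower (background 1.84% and 2.49%), with a median log2 ratio of 0.35 against -0.05 for all genes. Col3a1 (0.85, 0.52 to 1.21), Serpinh1 (0.76, 0.32 to 1.23), Fn1 (0.57, 0.22 to 0.95) and Mfap4 (0.42, 0.29 to 0.55, against -0.51 over the whole set) were above the distal level by less than 2-fold. Several matrix genes were higher in the 122 niche cells than in the 63. Col1a1 was at 2420.2 against 932 CPM, Col3a1 at 3451 against 1628 CPM, Eln at 3790 against 1381 CPM and Tnc at 161 against 41.2 CPM. This did not hold for all: Mfap4 was at 2902 against 8948 CPM, and Bgn at 3517 and 3544 CPM. These 122 cells had too few distal counterparts for a ratio, and with 1 library per group a cluster found in 1 library cannot be told apart from that library. All 67 Postn UMIs of the niche set and 217 of its 218 Spp1 UMIs lay in these 122 cells.

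**Figure D4:**
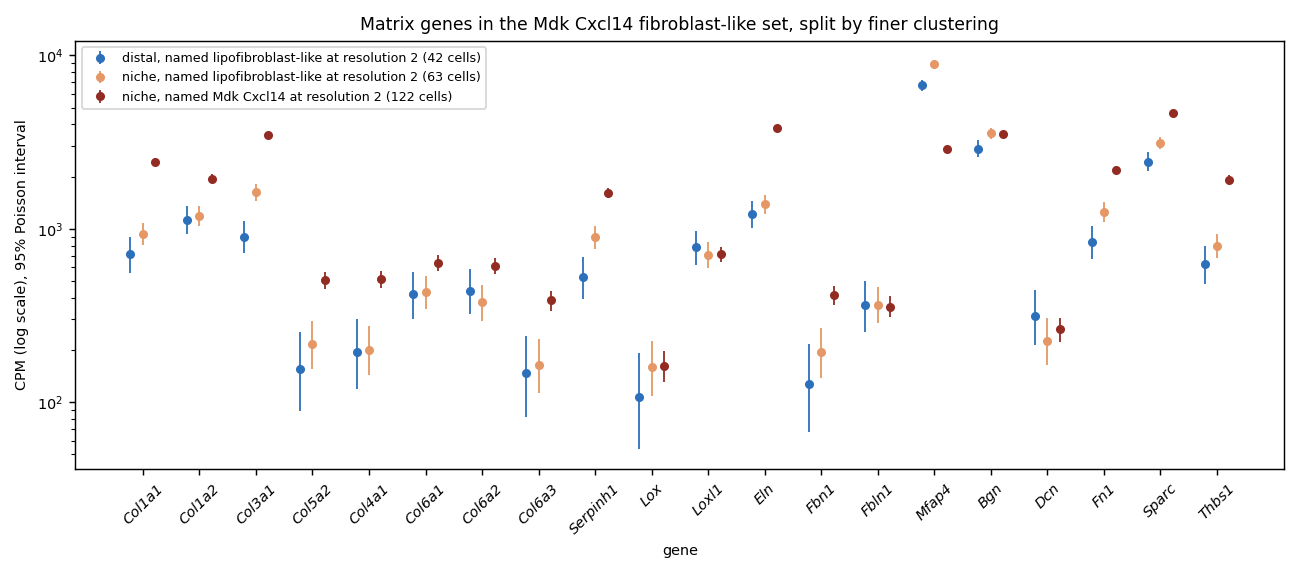
CPM on a log scale (95% Poisson interval) of the matrix genes with at least 30 UMIs, in the Mdk Cxcl14 fibroblast-like set split by the name its cells take at resolution 2. The 63 niche and 42 distal cells named lipofibroblast-like lie close together, while the 122 niche cells that keep the name are higher for Col1a1, Col3a1, Eln and Fn1 and lower for Mfap4.

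In alveolar myofibroblast-like cells the higher genes were Tnc (157 against 14.1 CPM, 3.26, 1.90 to 5.77), Fn1, Postn, Vcan, Fbn1, Col5a2, Serpinh1, Sparc (2750.3 against 1173 CPM, 1.23, 1.04 to 1.42), Lum, Dcn and Loxl1. Here too other genes differed inside the set. Hhip, an alveolar myofibroblast marker, was at 373 CPM in niche and 1356 CPM in distal cells, and the chemokine gene Cxcl10 at 6189 and 268 CPM. At resolution 2, 60 niche and 104 distal cells kept the name, and 129 niche and 3 distal cells were named smooth muscle-like. Between the 60 and 104 cells 5 of 29 matrix genes were higher and 0 lower (background 2.52% and 2.86%): Tnc (3.41, 1.21 to 9.35, on 13 and 1 UMIs), Fn1 (1.83, 0.02 to 4.48, on 10 and 3 UMIs), Col5a2 (1.32, 0.69 to 2.01), Fbn1 (1.08, 0.17 to 2.08) and Dcn (1.0, 0.72 to 1.29). Fn1, at 58.4 CPM in these 60 niche cells, was below the 68.6 CPM of the highest free RNA gene. The median was 0.58 against 0.00 for all genes. Sparc fell short of 2-fold there (0.61, 0.36 to 0.87), and Thbs1 was below the distal level (-0.41, -0.64 to -0.18). Fbln1, the 1 lower gene of the whole myofibroblast-like set, was at -0.45 (-1.11 to 0.17) between these cells.

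The inflammatory fibroblast-like cells, led by Saa3, Timp1 and Cxcl9, were nearly all niche cells, and their levels are a description only. Serpinh1 was at 1599 CPM, beside 1586 CPM in niche adventitial cells, and Tnc at 259 CPM was above each other niche subtype. Fn1 was at 1713 CPM and Sparc at 4085 CPM. Lum (20.4 CPM), Tgfbi (3.8 CPM) and Col14a1 (11.5 CPM) were low in them.

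Pericyte-like cells were few, at 22 and 35, with 65004 and 52994 UMIs in all. Their higher genes were Thbs1 (4.20, 2.59 to 7.59, on 56 and 2 UMIs), Loxl2 (2.14, 0.26 to 5.60, on 13 and 2 UMIs), Col3a1 (2.03, 0.74 to 3.87), Col1a1 (1.35, 0.22 to 2.76) and Col4a1 (1.07, 0.61 to 1.55). Thbs1 UMIs were found in 8 of 22 niche and 1 of 35 distal cells. Loxl2 had fewer than 30 UMIs and was named after its value was seen. Acta2, a smooth muscle gene, was at 938 CPM in the niche and 37.7 CPM in the distal cells of this set (61 and 2 UMIs), and its part in these ratios was not tested. At the free RNA level of endothelial-like cells, Col1a1 would be at 62.9 CPM in the niche and 8.7 CPM in the distal library, below the pericyte-like levels of 400.0 and 151 CPM. Sparc and Postn, both highest in pericyte-like cells among the mesenchymal-like subtypes, were below the distal level (-0.26, -0.48 to -0.04, and -0.49, -0.87 to -0.11).

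Droplets also hold RNA released by other cells, called free RNA here. It was measured with 13 fibroblast genes outside the set, such as Inmt, Dpt and Clec3b. Their pooled level in endothelial-like cells was 3.79% of the mesenchymal-like level for niche and 0.758% for distal cells, and in immune-like cells 2.55% and 0.640%. The free RNA share was thus larger in the niche library. The haemoglobin gene was at 4165 CPM in niche and 3.88 CPM in distal endothelial-like cells, the reverse of its order in the Mdk Cxcl14 set. That gene was not used to measure free RNA, and its source was not tested. Of 29 matrix genes measured in endothelial-like cells 10 were at least 2-fold higher and 0 lower (background 2.07% and 1.55%), with a median of 0.98 against -0.04 for all genes. These 10 were Col1a1, Col1a2, Col3a1, Col6a2, Loxl1, Mfap4, Bgn, Lum, Fn1 and Thbs1, of which Col6a2, Loxl1 and Lum had fewer than 30 UMIs. None of the 10 was above the level of the highest free RNA gene in the niche library. Col3a1, for example, was at 42.4 CPM in niche endothelial-like cells, where free RNA at the pooled share would give 116 CPM. With the free RNA level subtracted, 18 of the 29 genes stayed above 0 in both libraries and their median was -0.22. The pooled level was above the measured one for Col3a1, so the subtraction can take away more than free RNA gave. The medians before and after also cover unlike genes, 29 and 18. Of these 18 genes 6 then changed sign: Fn1 (1.28 before, -1.06 after), Thbs1 (1.52 and -1.88), Fbn1 (0.98 and -0.29), and Col14a1, Lox and Tgfbi, which had fewer than 30 UMIs. Mfap4, 1 of the 10 higher genes, did not, and was at 1.99 after subtraction.

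The matrix genes of endothelial-like cells that stood above free RNA were another group. In the niche they were Col4a1, Col4a2, Col12a1, Serpinh1, Loxl2, Sparc and Cthrc1, 7 of 34. In distal cells, where free RNA was lower, they were 15 of 31, these 7 among them. Sparc was at 1346 CPM in niche and 1159 CPM in distal endothelial-like cells (0.22, 0.13 to 0.30) and Serpinh1 at 385 and 306 CPM (0.33, 0.17 to 0.49). None of the 7 reached 2-fold. Cthrc1 was the one gene of the 29 below the distal level beyond counting error (11 against 20.6 CPM, -0.87, -1.84 to -0.06). By subtype, Sparc was at 2415 and 1868.5 CPM in interferon-type cells and 322 and 205 CPM in Car4 capillary-like cells, and Eln at 240 CPM in distal venous-like cells, above its free RNA level. Fn1 was at 101 CPM in distal arterial-like and 4.17 CPM in distal general capillary-like cells. General capillary-like cells had 7 of 21 genes higher and 0 lower (background 1.37% and 1.58%) with a median of 0.93, and after subtraction the median was -1.08 over 10 genes. The smaller subtypes had few measured genes: 1 of 8 was higher in Car4 capillary-like cells (Bgn, background 1.39% and 1.36%), 1 of 12 in arterial-like cells (Mfap4, background 1.19% and 1.59%), 3 of 12 in venous-like cells (Col3a1, Mfap4 and Thbs1, background 2.18% and 2%) and 3 of 9 in interferon-type cells (Mfap4, Bgn and Fn1, background 2.45% and 3.49%), with 0 lower in each. None of these genes was above the highest free RNA gene in its niche subtype.

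**Figure D5:**
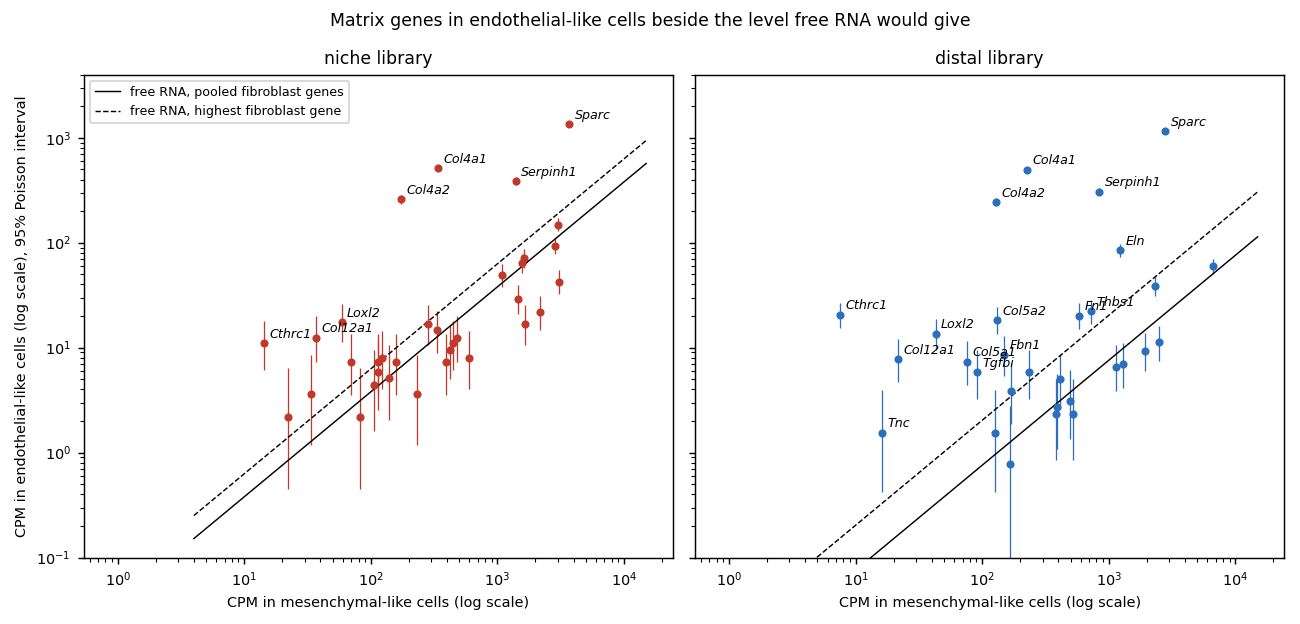
CPM of each matrix gene in endothelial-like cells (95% Poisson interval) against its CPM in mesenchymal-like cells, both on log scales, for the niche and distal libraries; the lines show the pooled and the highest level of the 13 free RNA genes. Named genes lie above the dashed line, 7 of them for niche and 15 for distal cells, and the solid line is higher in the niche (3.79%) than in the distal library (0.758%).

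Outside stroma and endothelium, 10 of 31 matrix genes stood above the highest free RNA gene in distal alveolar type 2-like cells, and in immune-like cells 3 of 34 in the niche (Loxl2, Tgfbi and Spp1) and 1 of 31 in the distal library (Col4a2). The immune-like levels rested on few UMIs. Loxl2 had 3, Tgfbi 12 and Spp1 7 UMIs in 51 niche cells, and Col4a2 had 3 in 26 distal cells. Sparc was at 7006 CPM in 8 niche and 5862 CPM in 29 distal alveolar type 1-like cells. Distal alveolar type 2-like cells had Cthrc1 at 34 CPM and Col4a1 at 106 CPM. Spp1 (osteopontin), listed in the niche table only, was at 268 CPM in Mdk Cxcl14 cells, where 7.3% of cells held all 218 UMIs, and at 191 CPM in 70 niche keratin-positive epithelial cells, of which 54 had low Malat1. Whether injected Labelling-4T1 cells were gated out is not given in the labels used here, and whether these keratin-positive cells are of the mouse lung or of the injected line was not tested. Thbs2 was at 74.3 CPM in niche myofibroblast-like cells and Col8a1 at 138 CPM in niche pericyte-like cells, each above the next subtype (1.10, 0.45 to 1.81, and 1.78, 0.48 to 2.82).

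Genes that process, cut or bind matrix are given for the mesenchymal-like class, where all counts have the same background of 3.41% higher and 7.39% lower. Of 15 measured collagen processing genes 2 were higher, the lysyl hydroxylase gene Plod3 (1.21, 0.71 to 1.79) and the procollagen proteinase gene Bmp1 (1.02, 0.37 to 1.80), and Pcolce2, a procollagen enhancer, was lower (-1.42, -1.53 to -1.32); the median over the list was 0.14, against -0.16 for all genes. Of 13 other basement membrane genes 0 were higher and 0 lower, with a median of 0.00. Of 17 proteinase and inhibitor genes 5 were higher, with Timp1, an inhibitor of metalloproteinases, at 1235 against 85.9 CPM (3.84, 3.53 to 4.18) and Serpine2 at 845 against 254 CPM (1.73, 1.54 to 1.93), and 2 were lower, Mmp2 (-1.01, -1.19 to -0.83) and Adamts9 (-1.11, -1.77 to -0.42), with a median of -0.19. Of 16 matrix receptors the hyaluronan receptor gene Cd44 was higher (1.60, 1.23 to 2.02), and Itga8 (-1.50, -1.75 to -1.25) and Cd36 (-1.20, -1.74 to -0.64) were lower, with a median of 0.02. Of 20 genes of the TGF-beta axis 5 were higher, among them the ligand gene Tgfb1 (1.43, 0.98 to 1.96) and Ltbp2 (1.07, 0.60 to 1.60), of the latent TGF-beta binding protein family, and 0 were lower, while Cyr61 (-0.62, -0.68 to -0.55) and Ltbp4 (-0.70, -0.84 to -0.55) were below the distal level and the median was 0.10. Acta2, the smooth muscle actin of contractile cells, differed little over the class (-0.05, -0.16 to 0.06) but went both ways within subtypes. It was at 3.51 (2.17 to 6.02, on 292 and 3 UMIs) in Mdk Cxcl14 cells and 4.33 (2.72 to 7.71, on 61 and 2 UMIs) in pericyte-like cells. In myofibroblast-like cells it was at -0.58 (-0.70 to -0.46), and in adventitial cells at -0.13 (-0.96 to 0.78). Subtype shares bear on these class ratios. The ratios were recomputed with 5 subtypes weighted to one mix and the inflammatory cells left out. The part of either step in the change was not tested. Itga8 was then at -0.58, Cd36 at -0.93, Mmp2 at -0.64, Adamts9 at -0.80 and Pcolce2 at -0.81. None of these 5 lower genes reached 2-fold. Cd44 was at 0.94, Tgfb1 at 0.97, Serpine2 at 1.14, Timp1 at 2.59 and Acta2 at -0.37. In Mdk Cxcl14 cells, whose background is given above, 8 of the 20 genes of the TGF-beta axis were higher and 0 lower, with a median of 0.82.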

How the data were processed

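The tools named by the submitters' processing notes are Cell Ranger 2.1.1 and R 3.4.1, with genome build mm10. The values deposited by the authors are unnormalized UMI counts from 3' chemistry, with a separate table for either library. Each lists only genes above a low total, so ratios used the 10198 genes in both. The filter was at least 500 genes and no more than 10% of UMIs from mitochondrial genes. Counts of each kept cell were scaled to 10000, and 2000 variable genes, 20 components and 15 neighbours went into Leiden clustering (resolution 1, without the 34 genes; scanpy 1.11.5 and leidenalg 0.10.2 under Python 3.11.15). Clusters needed 3 markers in 25% of cells. Scrublet called 13 niche and 21 distal doublets, which were kept in. UMIs were summed per library and set with at least 20 cells in each library, scaled to 1000000 UMIs of the common genes, and 0.5 UMI was added to each sum for a log2 ratio. Its interval is the exact conditional binomial one, levels have exact Poisson and shares exact binomial intervals. Values were given for genes with at least 30 UMIs over both libraries, and a few others were named after their values were seen. Only the ratio, its interval and the 2-fold call were tested on simulated data, which were Poisson counts without spread between cells or libraries. Clustering, naming, free RNA and mix weighting were not. A true 2-fold change was called for 58% of genes in mesenchymal-like, 48% in endothelial-like, 36% in Mdk Cxcl14 and 50% in myofibroblast-like cells. The 34 genes, their roles and all lists were chosen with earlier results of these data known. The split at resolution 2 and the low Malat1 limit were set after seeing values.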

Additional observations from a re-analysis of the deposited data

Results flagged for a closer look

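The matrix genes below had counting intervals on opposite sides of 0 in 2 mesenchymal-like subtypes. The difference between the subtypes was not tested, since each group is 1 library. Col6a1 had a log2 ratio of 0.65 (0.26 to 1.08) in alveolar myofibroblast-like and -0.57 in adventitial fibroblast-like cells. Col6a2, its partner in type VI collagen, had 0.73 (0.32 to 1.19) and -0.45 in the same subtypes. Loxl1 had 1.02 (0.47 to 1.66) in myofibroblast-like and -0.49 in lipofibroblast-like cells. Eln had 1.37 (1.12 to 1.64) in Mdk Cxcl14 fibroblast-like and -0.48 in adventitial cells, and in the 63 niche and 42 distal Mdk Cxcl14 cells that finer clustering named lipofibroblast-like it had 0.17 (-0.13 to 0.50). Postn had 2.12 (0.98 to 3.91) in myofibroblast-like and -0.49 in pericyte-like cells. Sparc had 1.23 (1.04 to 1.42) and -0.26 in these. In the 60 niche and 104 distal cells that kept the myofibroblast-like name under finer clustering, Postn had 0.69 (-1.14 to 2.73) and Col6a2 0.33 (-0.26 to 0.92), with intervals that include 0, while Col6a1 had 0.71 (0.19 to 1.25), Loxl1 0.99 (0.23 to 1.82) and Sparc 0.61 (0.36 to 0.87).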

How the results depend on the processing

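No paired analysis was possible because each group is 1 library and the labels give no replicate numbers. The median ratio of matrix genes in mesenchymal-like cells ran from 0.37 to 0.60 over all settings. With free RNA subtracted, the median was -0.22 over 18 genes in place of 0.98 over 29 in endothelial-like cells. In general capillary-like cells it was -1.08 over 10 genes in place of 0.93 over 21. That subtraction can take away more than free RNA gave. With it 6 endothelial genes changed sign, among them Fn1 (-1.06) and Thbs1 (-1.88). The median was 0.35 in place of 1.28 in the Mdk Cxcl14 set when only the cells that resolution 2 named lipofibroblast-like were used, a setting chosen after seeing the data. That set gave no value at resolution 0.5, at resolution 2 or with at least 1000 genes, since it merged or kept too few distal cells. The count of higher genes in endothelial-like cells was 6 in place of 10 with at least 50 UMIs, and Mfap4, the 1 lower gene in mesenchymal-like cells, was not counted (0) after thinning to 1200 UMIs or scaling to a median gene ratio of 0. After thinning, matrix UMIs were 3.14% in niche Mdk Cxcl14, 3.59% in niche adventitial, 2.83% in distal lipofibroblast-like, and 2.12% in niche and 1.37% in distal myofibroblast-like cells. Of 2666 recomputed ratios of single genes 2480 stayed within the main interval, 184 left it, and 2 of genes counted as 2-fold changed sign. Of the 2480, 178 with at least 50 UMIs and 201 with no minimum of UMIs could not differ. Those settings only choose which genes are listed. In all 134 changed sign, 13 of them with a main interval that excluded 0, such as Mfap4 in the Mdk Cxcl14 set (-0.51, and 0.42 in the cells named lipofibroblast-like). With 1 library per group, spread between animals could not be measured, and pericyte-like cells were limited by depth.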
